A study of Mus musculus with 6 samples.

Results

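The clustered Hox genes were followed through a comparison of mouse embryonic stem cells that had received an shRNA vector against Chd9, called shChd9 here, with cells that had received a control transfection. They were taken as every array probe whose platform symbol was Hox with a cluster letter from a to d and a paralogue number, which gave 57 probes for 38 genes among the 45281 probes of the array. The 2 probes of the antisense transcript Hoxd3os1, detected on 1 and 0 arrays, were not counted as Hox genes.

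Hox genes encode homeodomain transcription factors that give cells their position along the body axis. They lie in 4 clusters, HoxA to HoxD, and genes of the same number in different clusters are paralogues that descend from 1 ancestral gene. Low numbers act in the hindbrain and neck, middle numbers in the trunk, and high numbers in the lumbar region, tail, distal limb and genital tubercle. In undifferentiated stem cells Polycomb complexes hold most of the clusters silent, while fibroblasts keep the Hox code of the body region they came from.

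All 6 cultures were stem cells grown with serum and leukemia inhibitory factor on embryonic fibroblast feeders that mitomycin C had stopped from dividing. The pHYPER vectors were electroporated, puromycin was added 24 h later for 48 h, and the RNA was then collected. There were 3 control and 3 shChd9 samples, with 1 Illumina bead array each and all arrays on 1 slide. What the control vector carried, the stem cell line, and whether replicates were separate cultures are not given in the sources used here. P-values therefore measure array-to-array spread alone. How much of that spread is technical was not tested, and feeder markers, described below, differed between arrays of the same group. Each group held neighbouring positions on the slide, so position cannot be told apart from group.

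Between 39.2% and 40.8% of all probes were detected on each array, which means a detection p-value under 0.05 against the array's negative control beads. The 14 undifferentiated stem cell markers on the array were all detected, and their mean lay between 10.37 and 10.58 in control and between 10.31 and 10.53 in shChd9 samples (log2 intensity). Feeder RNA was present too. Of 35 fibroblast markers 28 passed detection, with means of 8.96, 7.97 and 8.53 on control arrays 1 to 3 and 9.45, 8.34 and 8.87 on shChd9 arrays 1 to 3. Postn was the only fibroblast marker on the array not detected on any of the 6 arrays. The arrays measured RNA from the whole culture, in which fewer cells of a type and less RNA per cell cannot be told apart. The targeted gene was lower in the shChd9 samples on the 2 of its probes detected on every array, of which ILMN_1235114 gave 7.67, 7.54 and 7.65 in controls against 6.75, 6.37 and 6.41 in shChd9 samples (log2 intensity). Its log2 fold change was -1.11 ± 0.16 (SE). Probe ILMN_2697954 gave 7.36, 7.74 and 7.80 against 6.56, 6.32 and 6.64, a log2 fold change of -1.13 ± 0.18. Both missed the test over all probes (limma, adjusted p = 0.540 each). Another probe, ILMN_1226311, detected on 5 arrays, had a log2 fold change of 0.35 ± 0.21 (limma, adjusted p = 0.925).

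Of the 38 Hox genes, 17 were detected on at least 3 of the 6 arrays by at least 1 probe, which is 44.7% against 53.5% of the 19057 genes on the array. Detection on all 6 arrays was rarer among them, with 9 genes or 23.7% against 45.5% of all genes. Never detected were 11 genes, or 28.9% against 29.6%. By probe, 20 of 57 were detected on at least 3 arrays (35.1% against 39.1% of all probes), 6 on 2 arrays, 7 on 1 array and 24 on none. The share detected on none was 42.1% against 44.6% of all probes, and on all 6 arrays 17.5% against 31.8%. The 20 probes detected on at least 3 arrays, 10 of them on all 6, were the ones tested, and each was detected on at least 1 array of both groups.

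The 9 genes detected on all 6 arrays sat in the middle of the numbering. They were Hoxa5 and Hoxb5, Hoxc6, Hoxa7 and Hoxb7, Hoxc9 and Hoxd9, and Hoxc10 and Hoxd10. Of 11 genes at positions 1 to 4, 0 were detected on every array, compared with 9 of 18 at positions 5 to 10 and 0 of 9 at positions 11 to 13, where the positions were grouped after the values had been seen. At the low positions, Hoxb2, which patterns the hindbrain, and Hoxc4 were detected on 4 arrays each, and the other 9 genes on at most 2. At the high positions Hoxa13, Hoxc13 and Hoxd12 were detected on 5 arrays, Hoxd13 on 4 and Hoxd11 on 3.

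The clusters differed in how many members were detected on at least 3 arrays. HoxD had 6 of 9 genes, a run of neighbours from Hoxd8 to Hoxd13, while Hoxd1, Hoxd3 and Hoxd4 were detected on no array. HoxC had 5 of 9, namely Hoxc4, Hoxc6, Hoxc9, Hoxc10 and Hoxc13, with Hoxc5, Hoxc8, Hoxc11 and Hoxc12 detected on no array. HoxA had 3 of 10, Hoxa5, Hoxa7 and Hoxa13, and HoxB had 3 of 10, Hoxb2, Hoxb5 and Hoxb7. Paralogues often parted. Hoxc10 and Hoxd10 were detected on all 6 arrays and Hoxa10, with 2 probes, on none. Hoxa9 was detected on at most 2 arrays by any of its 3 probes and Hoxb9 on 1. These differences between genes were not tested, since each probe has its own affinity, and a gene missed by its probe may still be expressed.

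**Figure D1:**
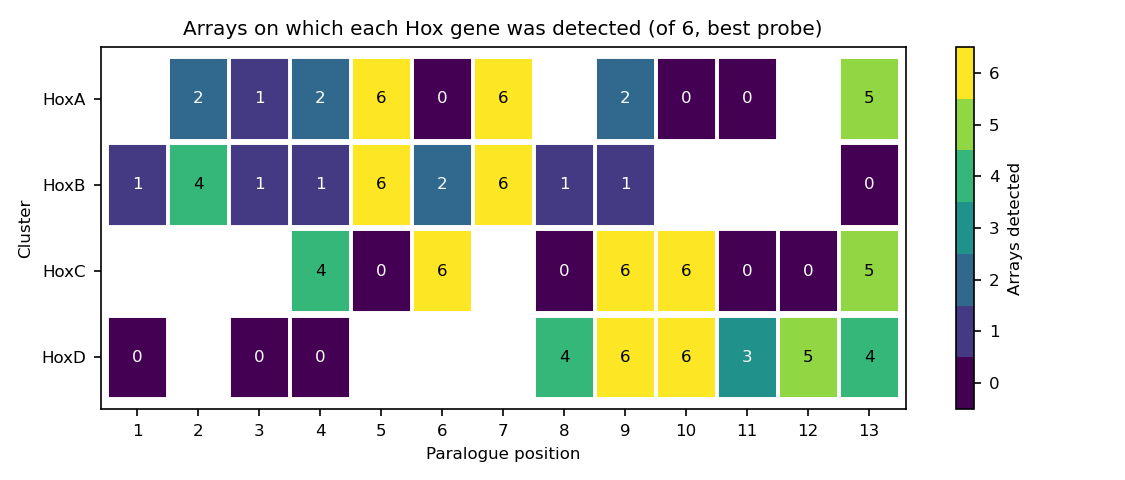
Number of arrays, of 6, on which each Hox gene was detected by its best probe, with clusters as rows and paralogue positions 1 to 13 as columns. Empty places are positions with no gene analysed here, and the 9 genes detected on all 6 arrays lie at positions 5, 6, 7, 9 and 10.

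The comparison of shChd9 with control asked what lower Chd9 does to the expression of stem cells. No Hox probe was called. Among the 20 tested Hox probes limma found 0 with an adjusted p under 0.05, against 0 of all 17719 tested probes (0%). At an unadjusted p under 0.05 it found 0 Hox probes, against 942 probes or 5.32% of all. The smallest Hox p was 0.0730, with adjusted p-values between 0.925 and 0.999 (limma, n = 3 each). The groups did not overlap in 0 Hox probes, against 10.3% of all tested probes. The log2 fold change was above 0 in 18 of the 20 Hox probes, against 49.2% of all, with a median of 0.20 against -0.0037. This direction is the one that these arrays had already shown for Hox genes in earlier work on them, and it went with feeder markers that had a log2 fold change above 0 in 28 of 28, with a median of 0.40, and with primitive endoderm markers above 0 in 7 of 7, with a median of 0.31. The primitive endoderm list included the collagen and laminin genes Col4a1, Col4a2, Lama1 and Lamb1, while its members Gata4 and Foxa2 were detected on no array. Whether feeder RNA gave the values of that list was not tested. The part of the feeder and endoderm markers in the Hox direction was not tested apart from the feeder fit that follows. With the feeder mean as a covariate in the fit, 14 of the 20 were above 0 and the median was 0.17. The share above 0 and the median over all tested probes are not given here for that fit or with an array left out. Without shChd9 replicate 1, the array with the highest feeder mean, 14 of the 20 were above 0 and the median was 0.15, and without control replicate 2, the array with the lowest, the median was 0.12. Without shChd9 replicate 3 it was 0.13, and without control replicate 3 it was 0.33. With no background correction the median was 0.06, and over all 57 Hox probes, without the filter on dim ones, it was 0.08. Without background correction the size of the fold change was at least 1.5 times smaller in 19 of the 20 probes. The share of all tested probes that shrank as much is not given here, so the count is not read as particular to Hox probes.

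All 20 intervals of the fold change included 0, and 16 of them lay within 1 log2 unit in either direction. The other 4 were those of Hoxa5, Hoxa13, Hoxc6 and Hoxc9. The median SE was 0.25 for the Hox probes and 0.19 for all tested probes, and the median SD within groups was 0.38 and 0.23.

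**Figure D2:**
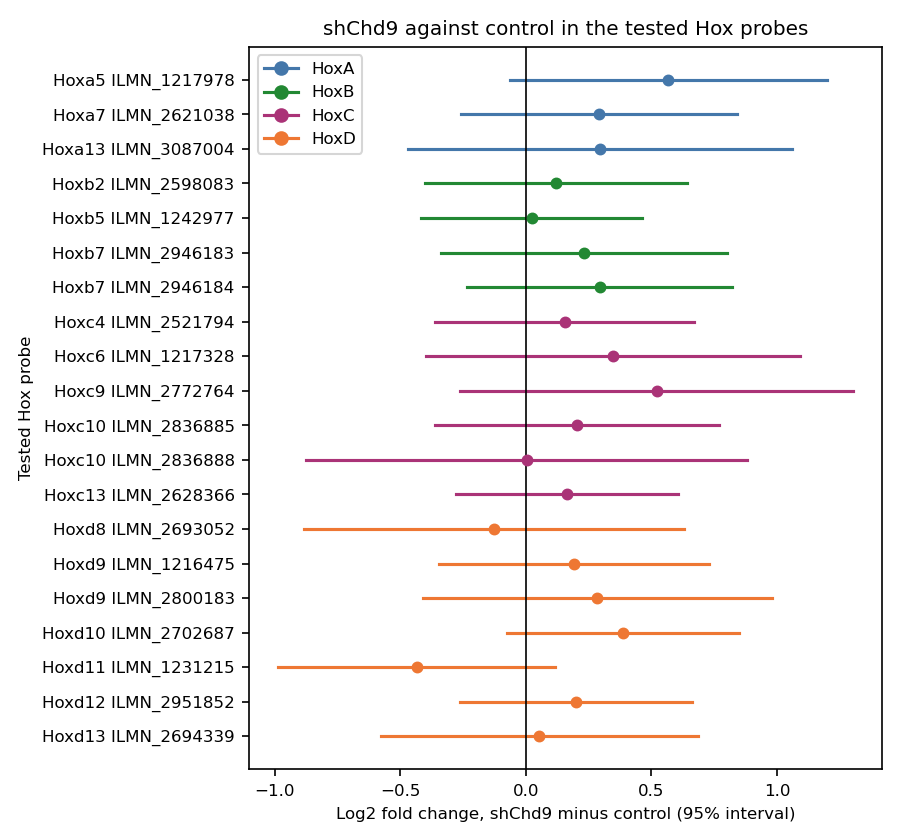
Log2 fold change of shChd9 over control for the 20 tested Hox probes, with 95% intervals from limma as lines (n = 3 arrays per group) and colours by cluster. All 20 intervals cross 0, and 18 of the 20 points lie above it.

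Among the HoxA genes, Hoxa5, which patterns the neck, upper trunk and lung, had the highest fold change of any tested Hox probe. It measured 6.35, 6.23 and 6.08 on the controls against 7.32, 6.94 and 6.10 on the shChd9 arrays (log2 intensity). shChd9 1 and 2 lay above every control array, whereas shChd9 3 lay within the control range. The log2 fold change was 0.57 ± 0.28 (SE), with an interval of -0.06 to 1.20 (limma, adjusted p = 0.925; exact two-sided permutation p = 0.30, where 3 against 3 cannot go below 0.10). It was 0.30 without shChd9 replicate 1 and 0.91 without shChd9 replicate 3. Hoxa7, a trunk gene, measured 6.01, 6.25 and 6.01 in controls against 6.66, 5.80 and 6.69 in shChd9 samples. Its shChd9 arrays spanned the control range, with a log2 fold change of 0.29 ± 0.24 that was 0.14 without shChd9 replicate 3 and 0.58 without shChd9 replicate 2. Hoxa13, which shapes digits and the genital tubercle, measured 5.68, 5.17 and 4.45 in controls against 4.86, 5.42 and 5.90 in shChd9 samples, a log2 fold change of 0.29 ± 0.34. It was not detected on control 3, and its other 2 probes were detected on 1 and 2 arrays.

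The HoxB genes showed small fold changes with overlapping groups. Hoxb7 was tested by 2 probes, which ranked the arrays in part differently. Probe ILMN_2946183 measured 6.58, 6.51 and 7.31 in controls against 7.32, 6.68 and 7.11 in shChd9 samples, a log2 fold change of 0.23 ± 0.25. Probe ILMN_2946184 measured 6.30, 5.91 and 6.56 in controls against 6.46, 6.24 and 6.96 in shChd9 samples, a log2 fold change of 0.29 ± 0.23. Both probes were highest on control 3 among the control arrays and lowest on replicate 2 of each group. Without control replicate 3 their fold changes were 0.49 and 0.45, while the first was 0.09 without control replicate 2 and the second 0.09 without shChd9 replicate 3. Hoxb5, a gene of the lower neck and upper trunk, had the narrowest interval of any tested Hox probe. It measured 5.69, 5.80 and 5.45 in controls against 6.02, 5.53 and 5.46 in shChd9 samples, a log2 fold change of 0.02 ± 0.19 (interval from -0.42 to 0.46). Hoxb2 measured 5.08, 4.58 and 5.09 in controls against 4.61, 5.32 and 5.18 in shChd9 samples, a log2 fold change of 0.12 ± 0.23. It was detected on 2 arrays of each group, so that its lower values lie at background.

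**Figure D3:**
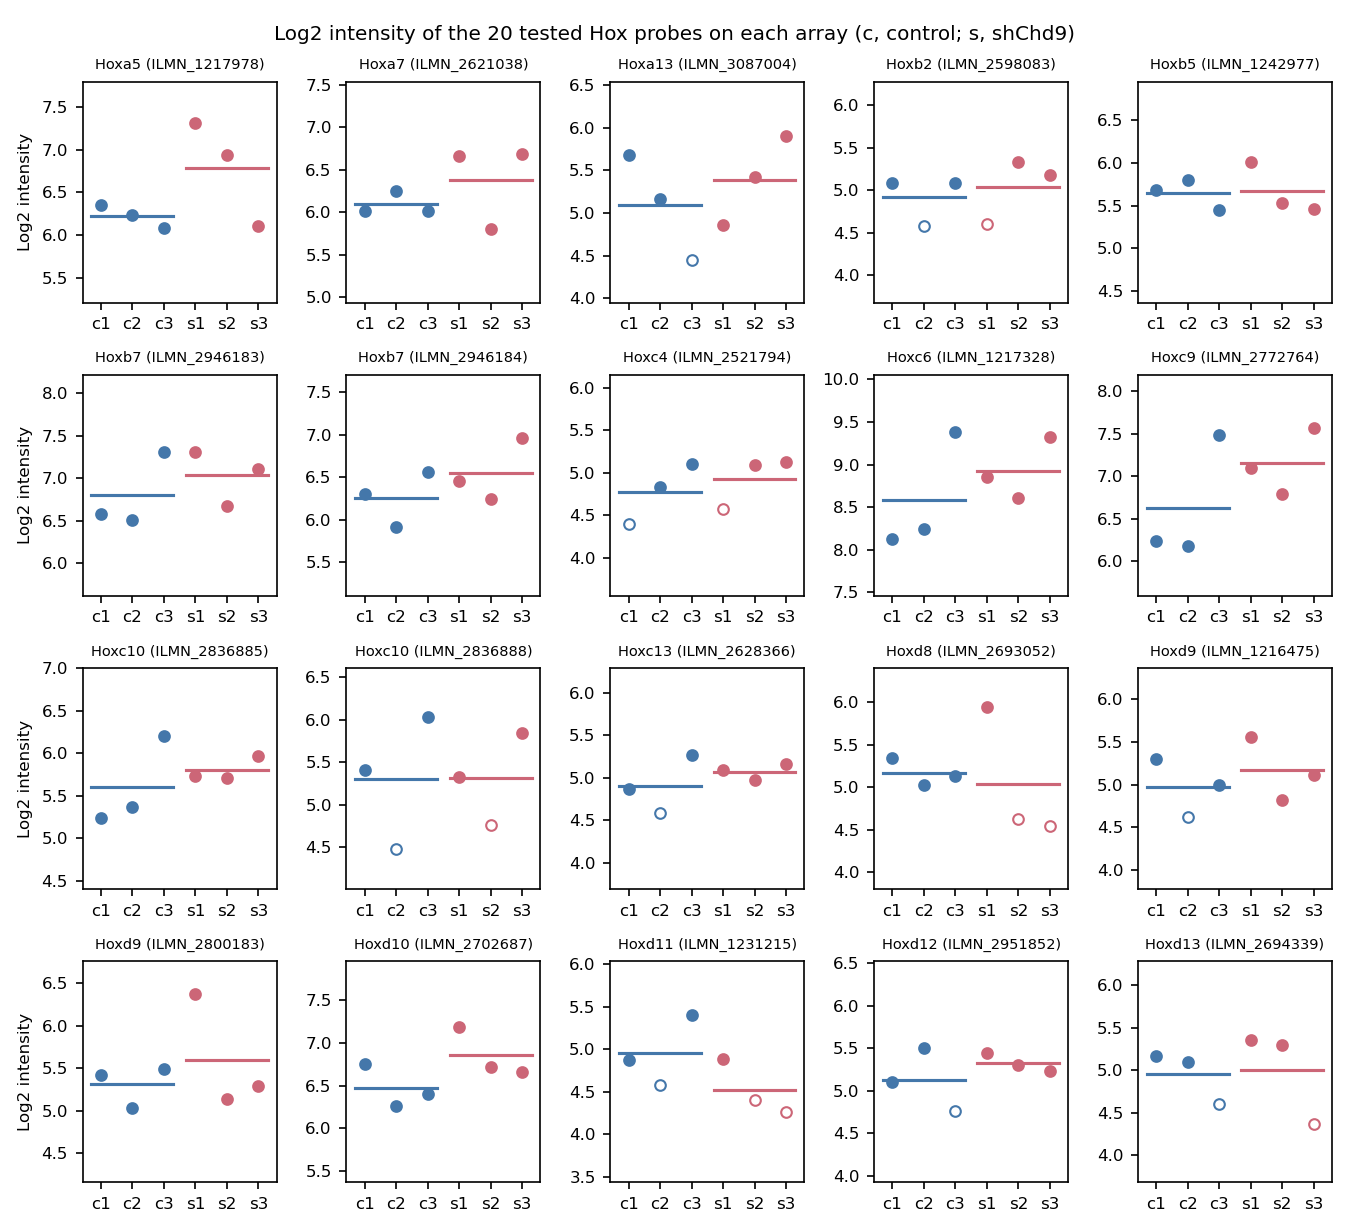
Log2 intensity of each tested Hox probe on control arrays 1 to 3 (c1 to c3) and shChd9 arrays 1 to 3 (s1 to s3), with lines at the group means and open circles where the probe was not detected. Each panel spans the same height on the log2 scale, and in none of the 20 do the groups separate.

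The HoxC genes, like most other tested Hox probes, varied more between arrays of a group than between the groups. Hoxc6, a gene of the thoracic region, measured 8.12, 8.25 and 9.38 on the controls against 8.86, 8.60 and 9.32 on the shChd9 arrays. Control 3 stood above the other controls by more than the groups differed, and the log2 fold change was 0.35 ± 0.33 (limma, adjusted p = 0.949). Hoxc9, which keeps limb motor neurons out of the thoracic spinal cord, measured 6.23, 6.18 and 7.48 in controls against 7.10, 6.79 and 7.57 in shChd9 samples. It too was highest on control 3 and shChd9 3, with a log2 fold change of 0.52 ± 0.35 (0.932) that was 0.95 without control replicate 3 and 0.30 without control replicate 2. The fold change of Hoxc6 was 0.75 and 0.12 without control replicates 3 and 1.

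Hoxc10, a gene of the lumbar region, was tested by 2 probes. Probe ILMN_2836885 measured 5.24, 5.36 and 6.20 in controls against 5.74, 5.71 and 5.97 in shChd9 samples, a log2 fold change of 0.20 ± 0.25 that was 0.02 without control replicate 1 and 0.50 without control replicate 3. Probe ILMN_2836888, not detected on control 2 and shChd9 2, measured 5.41, 4.48 and 6.04 in controls against 5.32, 4.76 and 5.85 in shChd9 samples. Its fold change of 0.00 ± 0.39 turned with the scaling and is given no direction. Hoxc13, which is needed for hair and nails, measured 4.87, 4.59 and 5.27 in controls against 5.09, 4.97 and 5.16 in shChd9 samples, a log2 fold change of 0.16 ± 0.20 that was 0.0053 without control replicate 2 and 0.35 without control replicate 3. Hoxc4 measured 4.39, 4.83 and 5.10 in controls against 4.57, 5.09 and 5.12 in shChd9 samples, a log2 fold change of 0.15 ± 0.23. Hoxc4 was not detected on replicate 1 of either group.

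All 6 tested HoxC probes were highest on control 3 among the control arrays and on shChd9 3 among the shChd9 arrays. Of all 17719 tested probes 12.8% had that pattern, which was noticed in these data and not tested. Under median scaling in place of quantile normalization, control 3 stayed the highest control in all 6, while shChd9 3 was highest in 3, those of Hoxc6, Hoxc9 and Hoxc10 (ILMN_2836888). One Hoxb7 probe, ILMN_2946184, was the only tested Hox probe outside HoxC with the pattern. Control 3 and shChd9 3 did not have the highest feeder mean of their groups. They had the lowest mean raw intensity of their groups, at 383 and 356 against 421 to 464 on the other arrays, the fewest detected probes, at 17981 and 17734 against 18176 to 18457, and the lowest stem cell marker means, at 10.37 and 10.31. The part of these differences in the HoxC values was not tested.

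**Figure D4:**
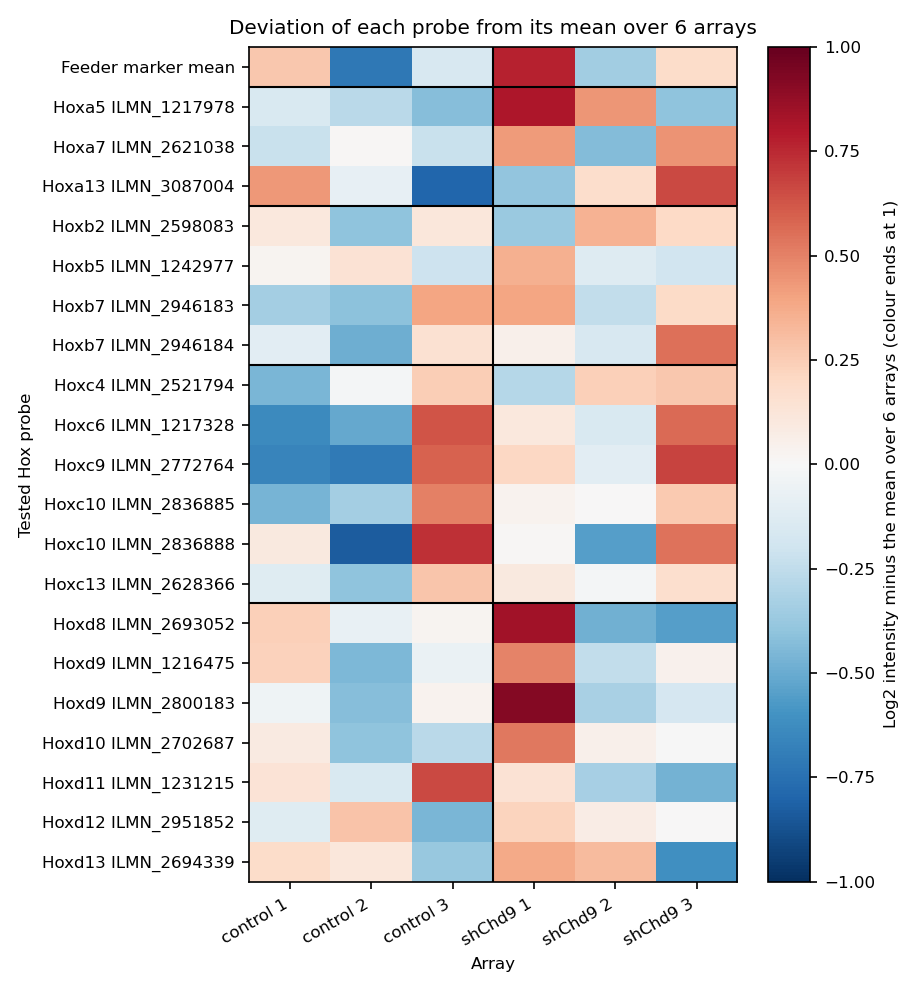
Deviation of each tested Hox probe (rows, in cluster order) from its own mean over the 6 arrays (columns), as log2 intensity, with the feeder marker mean in the top row. The 6 HoxC rows are highest on control 3 and shChd9 3, and the 7 HoxD rows are highest on shChd9 1 among the shChd9 arrays.

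The HoxD genes had another pattern. All 7 tested HoxD probes were highest on shChd9 1 among the shChd9 arrays, the array with the highest feeder mean, against 33.3% of all tested probes, and this too was noticed in these data. Outside HoxD the probe of Hoxa5, that of Hoxb5 and Hoxb7 probe ILMN_2946183 were also highest there, which made 10 of the 20 tested Hox probes. The HoxD count was 7 of 7 under median scaling, no background correction and the deposited normalized table. Among the control arrays, 4 of the 7 HoxD probes were highest on control 1, which had the highest feeder mean of the controls, 1 on control 2 and 2 on control 3. The share of all tested probes highest on control 1 is not given here, so nothing is read from this count. Sequence before the start of the 3 neighbouring genes Hoxd8, Hoxd9 and Hoxd10, and of Hoxa5, is shown here to let the CpG content of their promoters be seen. These genes were all highest on shChd9 1 among the shChd9 arrays. CpG-dense promoters are the usual sites of Polycomb binding in stem cells. Each run holds the 250 bases before the start in the RefSeq promoter table (GRCm38.p6), 5′ to 3′, with every CpG in capitals.
Hoxd10, chr2:74691641-74691890, plus strand: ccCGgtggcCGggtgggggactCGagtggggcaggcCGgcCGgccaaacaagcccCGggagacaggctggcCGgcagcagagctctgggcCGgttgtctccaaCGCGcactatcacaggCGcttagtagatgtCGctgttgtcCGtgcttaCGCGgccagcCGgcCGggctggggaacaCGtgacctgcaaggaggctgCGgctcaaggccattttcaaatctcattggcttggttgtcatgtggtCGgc
Hoxd9, chr2:74697513-74697762, plus strand: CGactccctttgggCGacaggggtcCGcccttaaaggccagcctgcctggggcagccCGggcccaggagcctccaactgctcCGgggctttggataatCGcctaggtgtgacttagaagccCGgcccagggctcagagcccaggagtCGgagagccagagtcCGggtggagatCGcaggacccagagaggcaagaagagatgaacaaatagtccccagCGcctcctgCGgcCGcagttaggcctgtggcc
Hoxd8, chr2:74704365-74704614, plus strand: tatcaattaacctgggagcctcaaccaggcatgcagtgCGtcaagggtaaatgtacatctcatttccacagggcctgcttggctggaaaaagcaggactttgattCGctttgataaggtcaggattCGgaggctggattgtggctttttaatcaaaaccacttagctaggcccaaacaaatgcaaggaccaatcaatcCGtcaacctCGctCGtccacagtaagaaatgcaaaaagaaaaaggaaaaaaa
Hoxa5, chr6:52204588-52204837, minus strand: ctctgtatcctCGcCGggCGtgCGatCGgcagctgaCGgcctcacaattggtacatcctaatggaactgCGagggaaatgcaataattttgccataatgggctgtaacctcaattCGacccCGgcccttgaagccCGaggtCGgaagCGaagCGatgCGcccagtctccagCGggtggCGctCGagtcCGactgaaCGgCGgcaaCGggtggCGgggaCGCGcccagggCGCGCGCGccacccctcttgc

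These runs held 20 CpGs for Hoxd10, 13 for Hoxd9, 6 for Hoxd8 and 28 for Hoxa5. As many or more CpGs stood in 17.9%, 31.5%, 50.4% and 7.61% of all 32851 promoter windows of that length, so that Hoxd8 lay near the middle of all promoters. A window was given for 22 of the 38 Hox genes, and their median was 13 CpGs against 6 over all windows, taking the richer window of Hoxa10 and Hoxd11, which have 2 each. Among those detected on at least 3 arrays the 10 genes had between 6 and 35 CpGs, and among the other 12 between 3 and 24, so that the ranges overlapped. The letters TATAAA, on either strand, stood in the windows of 4 of the 22 genes (18.2%), Hoxa10, Hoxb8, Hoxd4 and Hoxd13, against 12.4% of all windows. These counts describe the letters only.

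Hoxd10, which takes part in patterning the lumbar spinal cord and hind limb, measured 6.75, 6.25 and 6.40 in controls against 7.19, 6.71 and 6.66 in shChd9 samples. Control 1 lay above shChd9 2 and 3, so that the groups overlapped, where shChd9 exceeded control by 0.39 ± 0.21 on the log2 scale, an interval of -0.08 to 0.85 (limma, adjusted p = 0.925; exact two-sided permutation p = 0.30). It was 0.22 without shChd9 replicate 1. Hoxd9, its neighbour, was tested by 2 probes. Probe ILMN_2800183 measured 5.42, 5.03 and 5.49 in controls against 6.37, 5.14 and 5.29 in shChd9 samples, a log2 fold change of 0.29 ± 0.31. Without shChd9 replicate 1 its fold change was -0.10, since the other shChd9 arrays lay within the control range. Probe ILMN_1216475, not detected on control 2, measured 5.30, 4.62 and 5.00 in controls against 5.56, 4.82 and 5.11 in shChd9 samples, a log2 fold change of 0.19 ± 0.24. Hoxd8 measured 5.34, 5.02 and 5.13 in controls against 5.94, 4.62 and 4.55 in shChd9 samples. It was detected on 3 control arrays but on only 1 shChd9 array, replicate 1, and had a log2 fold change of -0.13 ± 0.34 that was -0.57 without that array.

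The 3 HoxD genes at the end of the cluster, which pattern forearm and digits, lay near background. Hoxd11 measured 4.88, 4.59 and 5.40 in controls against 4.88, 4.41 and 4.27 in shChd9 samples, with the lowest fold change of any tested Hox probe at -0.43 ± 0.24 (limma, adjusted p = 0.925). It was -0.62 without control replicate 2, -0.21 without control replicate 3 and -0.17 with no background correction. The gene was detected on 2 control arrays and 1 shChd9 array, and its second probe on none. Hoxd12 measured 5.10, 5.51 and 4.76 in controls against 5.44, 5.30 and 5.23 in shChd9 samples, a log2 fold change of 0.20 ± 0.21 that was 0.02 without control replicate 3 and 0.40 without control replicate 2. Hoxd13 measured 5.16, 5.09 and 4.61 in controls against 5.36, 5.30 and 4.37 in shChd9 samples, a log2 fold change of 0.05 ± 0.28. Hoxd13 was not detected on replicate 3 of either group.

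The relation of each tested Hox probe to the feeder markers was taken over the 6 arrays, with the p-values of exact two-sided permutation tests adjusted over all 17719 tested probes. Pearson's r was above 0 for 17 of the 20 probes, against 45.1% of all tested probes, with a median of 0.42 against -0.08. Without control 2 and shChd9 1, the arrays farthest from the median feeder mean, r was above 0 for 10 of the 20 and its median was -0.03. Leaving these arrays out also narrows the range of the feeder mean. The same values over all tested probes are not given here, so the change cannot be read as particular to Hox probes. After adjustment 0 of the Hox probes and 0 of all tested probes (0%) passed. With 720 permutations of 6 arrays the exact p of r cannot go below 0.00139. After adjustment over 17719 probes, a probe at that floor passes only if many others reach it too. No Hox probe could therefore pass by its own relation, and nothing is read from this count. An unadjusted p under 0.05 was found for 3 of the 20 Hox probes, against 2080 probes or 11.7% of all, so the Hox count lay near that share. These 3 were both Hoxd9 probes and Hoxd10. Hoxd9 probe ILMN_1216475 followed the feeder mean most closely, with the arrays of each group in the order of their feeder means. It was the only 1 of the 20 tested Hox probes in that order, a count near the share of 4.9% of all tested probes. Its r was 0.991 (exact permutation p = 0.00139, adjusted p = 0.238) and its Spearman's rho 1.00 (adjusted exact permutation p = 0.260). Without control 2 and shChd9 1 its r was 0.958.

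The other 2 of these probes depended more on those arrays. Hoxd9 probe ILMN_2800183 had an r of 0.856 (exact permutation p = 0.0181, adjusted p = 0.314) and a rho of 0.829 (adjusted exact permutation p = 0.492), and r fell to 0.431 without them. Hoxd10 had an r of 0.880 (exact permutation p = 0.0306, adjusted p = 0.359) and a rho of 0.829 (adjusted exact permutation p = 0.492), and r fell to 0.327. Hoxc6 and Hoxc9 had r of 0.238 and 0.356 with the feeder mean, at adjusted exact permutation p-values of 0.888 and 0.822. Hoxc4 had the lowest r of the tested Hox probes, at -0.495 (adjusted exact permutation p = 0.730). A fit with the group and the feeder mean together, added after seeing the data, gave the slope within groups. The slope was above 0 for 15 of the 20 Hox probes, against 46.2% of all tested probes. limma called 0 of the Hox slopes at an adjusted p under 0.05, against 116 of all (0.655%), which can include the feeder markers that make up the mean. At an unadjusted p under 0.05 there were 4 of the 20 Hox probes, against 12% of all, those of Hoxd8, Hoxd10 and both for Hoxd9. Hoxd9 probe ILMN_1216475 had the lowest adjusted p, with a slope of 0.67 ± 0.17 log2 units per log2 unit of the feeder mean (limma, adjusted p = 0.153). The number of Hox probes detected on an array, of 57, was 23, 18 and 18 for controls 1 to 3 against 22, 20 and 21 for shChd9 1 to 3, so that the array with the highest feeder mean in each group also had the most.

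**Figure D5:**
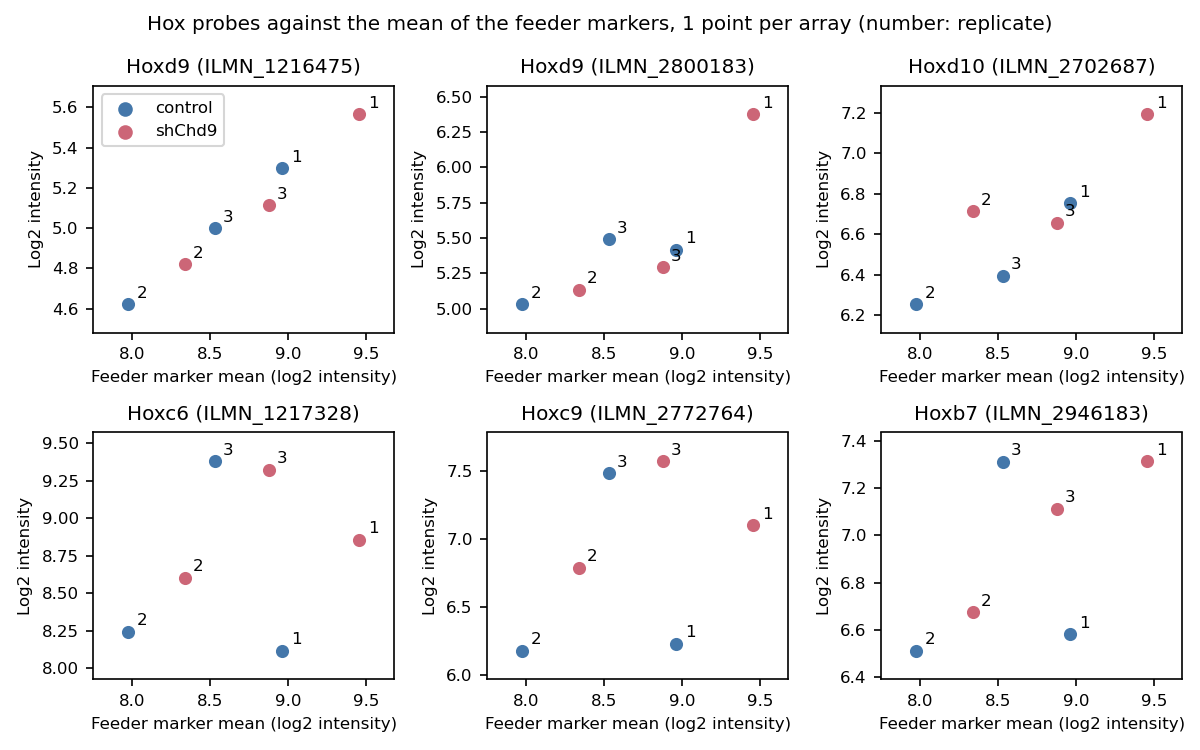
Log2 intensity of 6 Hox probes against the mean log2 intensity of the 28 detected feeder markers, with 1 point per array, numbered by replicate. Hoxd9 probe ILMN_1216475 rises with the feeder mean in both groups (r = 0.991), while Hoxc6 and Hoxc9 are highest on control 3 and shChd9 3.

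In the fit with the feeder mean as a covariate, the fold changes of both Hoxd9 probes turned to -0.08 (ILMN_1216475) and -0.04 (ILMN_2800183), and limma again called 0 Hox probes.

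Genes that act with Hox proteins or on the clusters were read from 7 lists, and limma called 0 of their 55 measured members, with 0 higher and 0 lower in each list. Of the PBC and MEIS cofactors, which bind DNA together with Hox proteins, 7 were measured, 4 with a fold change above 0, and the median was 0.02. Meis2 measured 7.45, 7.17 and 7.34 in controls against 7.67, 7.90 and 7.93 in shChd9 samples, a log2 fold change of 0.51 ± 0.16 (limma, adjusted p = 0.911), and Meis1 had 0.41 ± 0.19 (0.922). In both the shChd9 arrays lay above the control arrays. Over all lists the groups did not overlap in 11 of the 55 members, 6 higher and 5 lower in shChd9, against 10.3% of all tested probes, and among the genes named from the lists these were also Crabp2, Mtf2 and Psip1. Of the ParaHox and Evx genes, which are the closest relatives of the Hox genes, 3 of 8 were measured, with Cdx1 at 0.76 ± 0.37 and Cdx2 at 0.59 ± 0.35, both activators of trunk Hox genes in the embryo, and their groups overlapped.

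The retinoic acid pathway, which switches on the low-numbered Hox genes in embryos, had 9 of 19 genes measured with a median log2 fold change of 0.15. Crabp2, a retinoic acid carrier, had 0.29 ± 0.16 and Cyp26a1, which breaks retinoic acid down, 0.33 ± 0.20. Of the Polycomb genes 17 of 21 were measured with a median of -0.02, 7 with a fold change above 0 and 10 below. Cbx8, a reader of the Polycomb mark, measured 4.51, 4.97 and 5.25 in controls against 5.87, 5.18 and 5.95 in shChd9 samples, a log2 fold change of 0.76 ± 0.26, and was not detected on 1 control array. Mtf2, a partner of the Polycomb methyltransferase, had -0.45 ± 0.16 on its brightest probe and -0.24 and -0.20 on the others. Both had an adjusted p of 0.911 (limma). Of the Trithorax genes, which keep Hox genes active, 11 of 12 were measured with a median of 0.01, with Psip1 at -0.40 ± 0.15 (0.911) and Kmt2b at 0.24 ± 0.17 (0.932).

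Genes that flank the clusters had a median log2 fold change of -0.06 over 7 of 16 measured, with 2 above 0. Calcoco1 had 0.33 ± 0.18 and Smug1, a DNA repair enzyme, -0.25 ± 0.18 (limma, adjusted p = 0.925 and 0.938). Evx1, which lies beyond the high end of HoxA and belongs to the Evx list too, measured 6.04, 5.52 and 5.36 in controls against 6.41, 5.68 and 5.78 in shChd9 samples, a log2 fold change of 0.31 ± 0.25. Of the partners and inhibitors of Hox proteins 2 of 9 were measured, Smad1 at 0.21 ± 0.19 and Tle4 at -0.09 ± 0.17.

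Mesoderm and neural markers were mostly below detection, while most primitive endoderm markers were detected. Of 10 mesoderm markers 3 were measured, with list means between 4.72 and 4.87 in control and between 4.69 and 4.82 in shChd9 samples, and Mesp1 and Foxf1 were detected on no array. Of 10 neural markers 1 was measured, at 5.75 to 6.07 in control and 6.00 to 6.66 in shChd9 samples, and Sox1, Pax6, Pax3, Neurog1, Olig2 and Foxd3 were detected on no array. Of 10 primitive endoderm markers 7 were measured, with list means between 7.58 and 7.88 in control and between 7.80 and 8.38 in shChd9 samples, while Gata4 and Foxa2 were detected on no array.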

How the data were processed

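RNA from 3 control and 3 shChd9 samples was measured on 1 array each, and the transfection in the labels set the groups. The deposited table, per the file headers, gives an intensity (linear, with no normalization or background subtraction seen in the values) and a detection p-value for each probe. A second deposited intensity table holds the raw intensities quantile normalized, within 1.06 units of that computed here, with no centring and column medians of 111.400, 111.389, 111.397, 111.377, 111.385 and 111.369. The submitters' processing notes name GenomeStudio, with no version.

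Symbols came from GEO's platform table, updated through Entrez identifiers. Of the probes 34885 had 1 symbol, 18 had several and 10378 had none. Intensities were background corrected, quantile normalized and put on a log2 scale in limma 3.58.1 (R 4.3.3; normal-exponential model with controls inferred from the detection p-values, offset 16). Probes detected at p under 0.05 on at least 3 of 6 arrays were fitted by lmFit and eBayes with Benjamini-Hochberg adjustment over all 17719. No signal was averaged over probes, and for lists the brightest tested probe stands for a gene. The fit was tested on simulated data with independent normal spread for each probe. Those data lacked the feeder differences that probes share here, so the simulation does not speak to them. P-values of the feeder relation were adjusted over all tested probes and not over the Hox probes alone. The text names every tested Hox probe, the Chd9 check, and up to 2 members of each list with the smallest p where none passed. The Hox genes and the lists were chosen with earlier results of these data known. Replicates carry numbers in deposit order. The number of arrays limits the precision.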

Additional observations from a re-analysis of the deposited data

How the results depend on the processing

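Under every alternative (no background correction, the deposited normalized table, median scaling, no filter or a stricter one on dim probes, 1 probe per gene, each array left out, the feeder mean as a covariate), limma called 0 Hox probes and 0 of all probes tested, with a lowest adjusted p of 0.634 for any tested Hox probe. Median scaling moved the median log2 fold change of all tested probes to 0.03. With an array left out, the median Hox log2 fold change was between 0.12 and 0.33, the count above 0 between 14 and 18 of 20, the Hox probes detected on at least 3 arrays 19 or 20, and the Hox genes 16 or 17. Asking for detection on all 6 arrays left 10 Hox probes and 9 genes, and a detection p under 0.01 left 17 and 15. The median correlation with the feeder mean was 0.304 over all 57 Hox probes, without the filter on dim probes. Of 80 fold changes under the 4 alternatives that can change one (no background correction, the deposited table, median scaling, the feeder covariate) 73 kept their direction. Those that turned were Hoxc10 ILMN_2836888 (-0.00046 with no background correction, -0.00048 in the deposited table, -0.017 under median scaling, -0.29 with the feeder covariate) and, with the feeder covariate, Hoxb5 (-0.050) and Hoxd9 (-0.078 and -0.038), and the cause was not tested. With an array left out, 105 of 120 kept their direction. Ranges that crossed 0 were those of Hoxa13 (-0.030 to 0.58), Hoxb2 (-0.048 to 0.33), Hoxb5 (-0.15 to 0.13), Hoxc4 (-0.037 to 0.33), Hoxc10 ILMN_2836888 (-0.41 to 0.37), Hoxd8 (-0.57 to 0.12), Hoxd9 ILMN_1216475 (-0.0063 to 0.36), Hoxd9 ILMN_2800183 (-0.099 to 0.51) and Hoxd13 (-0.12 to 0.38). The alternatives for the array patterns and for detection with an array left out were chosen after seeing the data. Signal over background limits the 10 tested probes not detected on all arrays. No paired analysis was made, because the labels give no pairing and replicate numbers only follow deposit order. The feeder mean was highest on replicate 1 and lowest on replicate 2 of both groups. Whether same-numbered arrays shared a source was not tested, and no such source entered the fits.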

Other observations

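Genes outside the clusters that followed the mean of Hoxc6 and Hoxc9 over the 6 arrays were listed as the 8 most like it and the 8 most opposed, a rule made after the HoxC pattern was seen. Among 10177 genes, 20 had a Pearson's r above 0.95 with that mean over 6 arrays and 32 had one below -0.95. Those most like it included Kremen1, a co-receptor that dampens Wnt signalling, at r = 0.990, Hspa1b, a heat shock protein, at 0.987, Ctsz, a lysosomal protease, at 0.981, Irx2, a homeobox gene of another family, at 0.979, and Mdm2, the ubiquitin ligase of p53, at 0.975. Mdm2 measured 11.98, 12.15 and 12.69 in controls against 12.59, 12.40 and 12.80 in shChd9 samples (log2 intensity). Irx2 measured 6.83, 6.73 and 7.57 in controls against 7.16, 6.97 and 7.53 in shChd9 samples. Those most opposed included Gart, an enzyme of purine synthesis, at r = -0.996, Sox12, a transcription factor, at -0.987, and Lig3, a DNA ligase, at -0.976. Sox12 measured 10.21, 10.17 and 9.56 in controls against 9.69, 9.95 and 9.42 in shChd9 samples. With 6 points and this many genes, such values describe these arrays only.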
